A study of Mus musculus with 30 samples.

Results

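The genes described are 10 neighbours on mouse chromosome 16: Lsamp, Gap43, Sidt1, Boc, Cd200, Tagln3, Morc1, Cd47, Cblb and Alcam, of the 24421 genes listed. They were chosen because a stretch of this chromosome was raised in 1 tumour, EGFR_KY23, the third library of the wild-type EGFR group, so their levels in that library are a description and carry no test. Levels are given as RPM, normalised reads on a scale common to all libraries, and all 10 passed the filter of 1 RPM in 3 or more libraries. On the mm10 build they lie between 39984361 and 52454074, an interval of 12.5 Mb with 70 listed genes, of which 43 passed that filter, the 10 included. Morc1, named beside Sidt1 when the genes were chosen, was not highest in EGFR_KY23, and 4 of the 10 genes lay outside the raised stretch.

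Bulk tissue came from 28 cortical tumours, labelled glioblastoma, and from 2 samples of normal cortex, all of mice at postnatal day 70, with 1 stranded polyadenylated RNA library per sample. The tumours carried EGFR, the epidermal growth factor receptor, as the wild-type form (3 libraries) or as the single-residue variants A289I (5), A289V (4), R108G (3), R108K (4), R222C (3) and T263P (3), or the fluorescent protein mCherry as control (3). The design gives 3 to 5 mice per variant, but the labels do not tie a library to an animal, so p-values measure the spread between libraries. How the tumours were induced, the mouse strain, the promoter, and whether the receptor was of mouse or human sequence are not given in the sources used here. Egfr itself was 393 RPM in EGFR_KY23, against 115 and 209 RPM in the other wild-type EGFR tumours and 22.1 to 35.4 RPM in the mCherry tumours. Libraries held 2784129 to 24475215 reads, and 1 read was worth 0.0387 to 0.383 RPM.

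The proteins of the 10 genes have little in common beyond position. Sidt1 is a transmembrane protein related to the worm double-stranded RNA channel SID-1. Morc1 is an ATPase that mouse male germ cells need to silence transposons. Boc is a coreceptor for Sonic hedgehog, Gap43 a growth cone phosphoprotein, Lsamp an IgLON adhesion protein of neurons and Tagln3 a neuronal relative of transgelin. Cd200 and Cd47 are surface proteins whose receptors, Cd200r1 and Sirpa, restrain myeloid cells. Alcam is an adhesion protein that binds itself and the T cell receptor Cd6, and Cblb is a ubiquitin ligase that limits receptor tyrosine kinases and T cell activation.

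Sidt1 (chromosome 16, 44240180 to 44333196, minus strand) had the largest difference from the tumour median of any gene in EGFR_KY23. It had 18012 reads there, or 1404 RPM (exact Poisson 95% interval 1384 to 1425). The other 27 tumours lay between 0.719 and 45.0 RPM with a median of 3.97 RPM, and the cortex samples had 65.7 and 57.3 RPM. The level in EGFR_KY23 was 348 times the median of the 28 tumours and 22.8 times the cortex mean, a difference of 8.12 on the log2(RPM + 1) scale, and no other library came near it. Among all 443072 pairs of a tested gene and a tumour, this difference ranked 7th. The intervals for single libraries cover counting error only.

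The promoter of Sidt1 is shown because Sidt1 stood so far above its neighbours. Promoters of Cip2a and Naa50, which were at 6.72 and 8.64 times the tumour median in the same library, were picked after that to set beside it. Each run holds the 250 bases before and 50 after the start, from RefSeq on GRCm38.p6, with every CG dinucleotide in capitals. Sidt1 is chr16:44332789-44333088 on the minus strand, Cip2a chr16:48993938-48994237 and Naa50 chr16:44139541-44139840, both on the plus strand.
Sidt1: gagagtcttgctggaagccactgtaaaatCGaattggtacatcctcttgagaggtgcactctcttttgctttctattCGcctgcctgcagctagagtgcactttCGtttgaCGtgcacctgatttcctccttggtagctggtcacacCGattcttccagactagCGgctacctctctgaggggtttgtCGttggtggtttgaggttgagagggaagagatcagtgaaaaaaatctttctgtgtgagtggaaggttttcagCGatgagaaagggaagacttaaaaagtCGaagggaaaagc
Cip2a: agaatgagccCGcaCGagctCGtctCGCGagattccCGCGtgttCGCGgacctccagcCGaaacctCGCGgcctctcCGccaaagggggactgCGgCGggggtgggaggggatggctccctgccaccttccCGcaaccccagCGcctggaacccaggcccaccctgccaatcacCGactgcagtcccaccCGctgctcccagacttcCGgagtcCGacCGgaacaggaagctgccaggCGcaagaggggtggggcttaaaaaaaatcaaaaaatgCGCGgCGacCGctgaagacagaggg
Naa50: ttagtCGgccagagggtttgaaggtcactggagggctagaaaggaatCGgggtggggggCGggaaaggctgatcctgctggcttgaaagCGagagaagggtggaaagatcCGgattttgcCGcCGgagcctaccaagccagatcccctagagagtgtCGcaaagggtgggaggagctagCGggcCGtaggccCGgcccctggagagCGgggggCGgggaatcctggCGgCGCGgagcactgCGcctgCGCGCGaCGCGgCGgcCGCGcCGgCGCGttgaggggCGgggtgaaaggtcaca
The Sidt1 promoter held 9 CG dinucleotides, the Cip2a promoter 27 and the Naa50 promoter 29. A second Naa50 window, not shown, held 32. Of all 32851 promoters in the table, 45.8% held at least 9, 15.5% at least 27 and 12.9% at least 29. Among the tested genes that had a promoter there, 79.5% held at least 9, so the Sidt1 count was low beside those. The Cip2a window overlaps that of Dzip3, which is transcribed the other way, by up to 175 bases. Of the tested genes in the raised stretch described below, 26 had a promoter in the table. The 20 that were raised had a median of 22 CG dinucleotides and the 6 that were not a median of 4.5. The median was 20 over the 12234 tested genes of the whole table that had a promoter. This split uses the values on which the stretch was chosen, so nothing is read from it. Of the 6, Cfap44, Myh15, Btla and Cd96 had tumour medians of only 0.651 to 1.203 RPM, and Gm4737 one of 72.6 RPM. The sixth, Pvrl3 (now Nectin3), held 40 CG dinucleotides and was not raised by a narrow margin, at a difference of 0.97. The letters TATAAA, on either strand, were in the windows of 3 of the 26, namely Cd96, Gm4737 and Myh15, and in 13.6% of all promoters.

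The raised stretch ran from Qtrtd1 (now Qtrt2) to Bbx, 43861407 to 50432390, a length of 6.57 Mb. Its borders were set after the values were seen. On the log2(RPM + 1) scale, 25 of its 33 tested genes exceeded the tumour median by 1 or more in EGFR_KY23, and 23 had their highest level of the 28 tumours there. Over all 15824 genes tested, 436 (2.76%) exceeded it by as much in that library and 482 (3.05%) had their highest level there. Since the stretch was chosen on these values, nothing is read from the contrast. The values nearest the threshold were 1.22 for Phldb2, just inside, and 0.97 for Pvrl3 (now Nectin3), just outside.

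**Figure D1:**
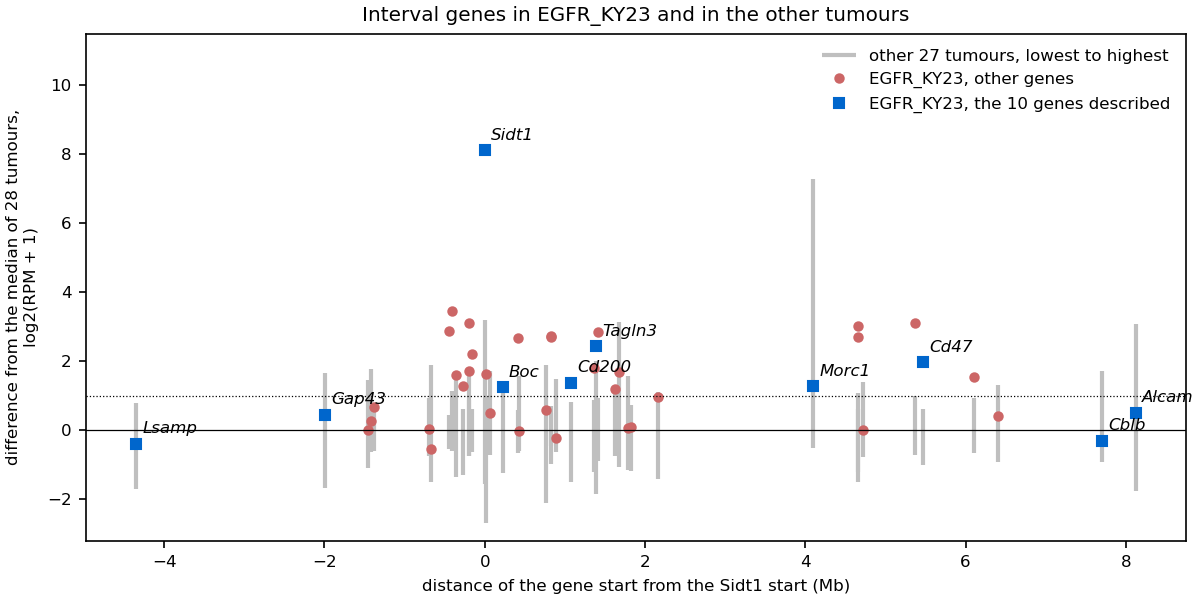
Difference from the median of the 28 tumours in log2(RPM + 1) for the 43 tested genes of the interval, against the distance of each gene's start from the Sidt1 start in Mb. Squares (the 10 genes described) and circles (other genes) are EGFR_KY23, and grey bars span the other 27 tumours. Sidt1 stands at 8.12, most genes from 0.44 Mb before it to 6.10 Mb after it lie above the dotted line at 1, and the Morc1 bar reaches 7.30 because of another tumour.

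Most of the stretch genes with a clear level in the other tumours were raised. Of the 23 stretch genes with a median of at least 5 RPM in the other 27 tumours, 20 were at least 1 above the tumour median in EGFR_KY23 and 19 were highest there. Their median difference was 2.21, a 4.61-fold higher level, with quartiles of 1.46 and 2.79. In the other 27 tumours the same median lay between -0.48 and 0.41, and at most 6 of the 33 stretch genes reached 1. The 448 tested chromosome 16 genes outside the interval had a median difference of -0.03 in EGFR_KY23, and all genes one of -0.01.

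**Figure D2:**
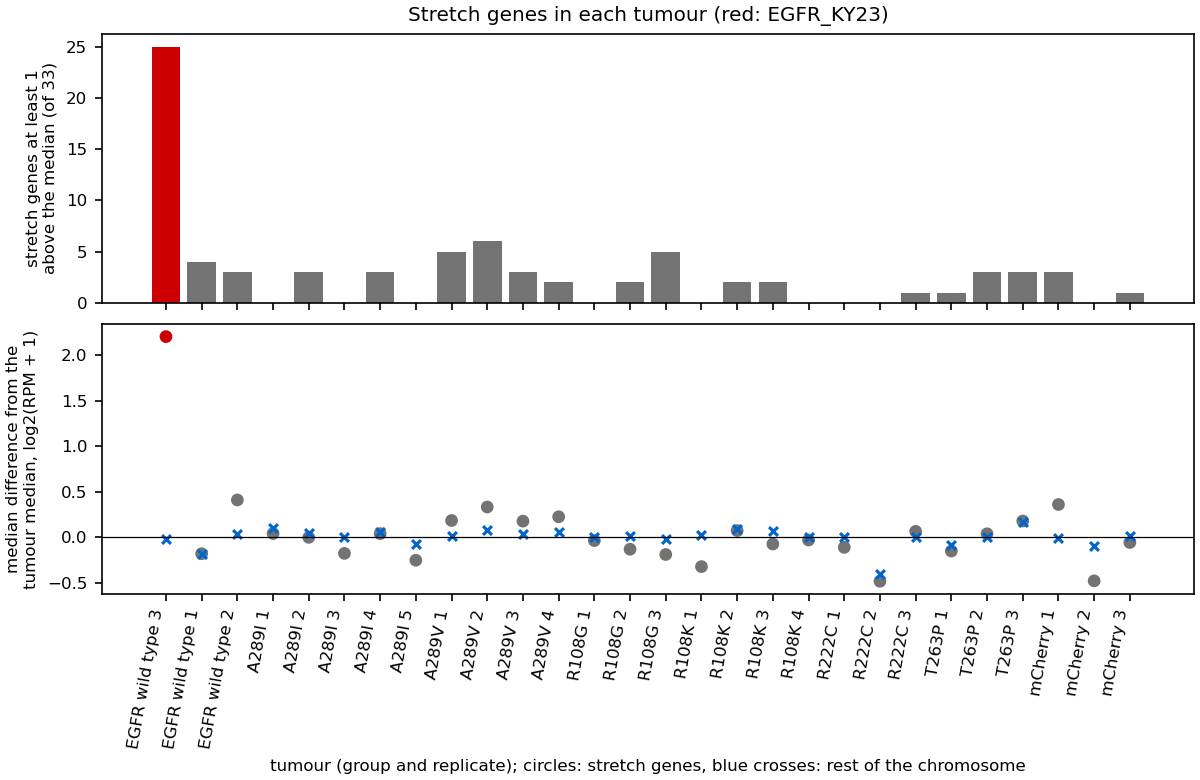
Stretch genes in each of the 28 tumours, with EGFR_KY23 (EGFR wild type 3) in red at the left. The upper bars count the stretch genes at least 1 above the tumour median, of 33 tested, and the lower circles give the median difference in log2(RPM + 1) of the 23 genes with at least 5 RPM, beside crosses for the 448 genes of the rest of the chromosome. EGFR_KY23 reaches 25 genes and 2.21, against at most 6 genes and 0.41 in the others.

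Among the interval genes besides the 10 that averaged 5 RPM or more, Qtrtd1 had the largest difference. Qtrtd1, a subunit of the enzyme that puts queuine into transfer RNA, had 206 RPM in EGFR_KY23 and at most 40.0 RPM in the other tumours, a difference of 3.47. Qtrtd1 and 2610015P09Rik (now Ccdc191, 2.89) overlap on opposite strands by 37010 bases, and whether the counting used the strand is not given, so their reads may not be separate. Ift57, a subunit of the transport complex of cilia, had 251 against at most 57.1 RPM (3.12), and Naa50, an N-terminal acetyltransferase, had 1086 against at most 233 RPM (3.10).

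Dzip3, an RNA-binding ubiquitin ligase, had 387 RPM in EGFR_KY23 and at most 72.3 RPM elsewhere (3.03). The other large differences were in Abhd10, a hydrolase of mitochondria (2.86), Atg3, a conjugating enzyme of autophagy (2.73), Slc35a5, a transporter of the nucleotide sugar family (2.72), C330027C09Rik (now Cip2a), an inhibitor of protein phosphatase 2A (2.72), and Gtpbp8 (2.68). For all of these 10 named genes the EGFR_KY23 level was above that of every other tumour.

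Among the same genes averaging 5 RPM or more, the smallest differences were in Pvrl3, the adhesion protein nectin-3 (0.97), BC002163 (0.69), Ccdc80, a secreted matrix protein (0.59), Gm4737 (0.10) and the transcription factor Zbtb20 (0.01). Zbtb20 and BC002163 lie before the stretch. Inside it, of the tested genes for receptors of leukocytes, Cd200r1 had 1.25 RPM in EGFR_KY23 and a tumour median of 1.30 RPM, Btla 0.780 against 1.06 RPM and Cd96 1.33 against 1.203 RPM. Cd200r3, a relative of Cd200r1 in the stretch that did not pass the filter, had 14 reads or 1.09 RPM in EGFR_KY23 and at most 0.122 RPM in the other tumours, a difference of 1.06. Tigit, a T cell receptor just before the stretch, had 0.935 RPM and a difference of -0.54. The muscle-type myosin Myh15 was 0.702 RPM in EGFR_KY23, with a tumour median of 0.701 RPM. Of the 10 stretch genes under 5 RPM in the other tumours, 5 were at least 1 above the tumour median.

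Beside the stretch, no tested gene of the interval was 1 or more above the tumour median in EGFR_KY23. The 7 tested genes of the interval before Qtrtd1, Lsamp and Gap43 among them, ranged from -0.54 to 0.69, and the 3 after Bbx, which include Cblb and Alcam, from -0.30 to 0.51. Beyond Alcam, the next tested genes were Nfkbiz (-1.61) and Nxpe3 (-0.44). The 27 untested genes of the interval, 18 of them in the stretch, were at most 3.43 RPM in EGFR_KY23, the level of Dppa2, a gene of early embryos and germ cells inside the stretch (a difference of 1.95), and of the noncoding G730013B05Rik after Bbx (1.86). Epha3, an ephrin receptor farther along the chromosome and picked after its values were seen, had 91.2 RPM in EGFR_KY23, a difference of 4.52.

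Among the 10 genes, 6 were at least 1 above the tumour median in EGFR_KY23 and 5 of these (Sidt1, Boc, Cd200, Tagln3 and Cd47) had their highest tumour level there. The median over the 10 was 1.27, against -0.55 to 0.39 in the other tumours, of which none had more than 3 of the genes past 1. Boc, Cd200, Tagln3 and Cd47 were 2.51 to 5.48 times the tumour median.

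Cd47, which signals to Sirpa on macrophages, had 214 RPM in EGFR_KY23 (206 to 222.1), against 26.3 to 83.5 RPM in the other 27 tumours (median 51.6) and 36.3 and 54.0 RPM in cortex. That was 3.97 times the tumour median and above every other library. Cd200, the ligand of Cd200r1, had 229 RPM (221 to 238) in EGFR_KY23, against 30.2 to 154 RPM (median 86.3) in the other tumours and 99.6 and 107 RPM in cortex. It too was above all other libraries, at 2.63 times the tumour median. The microglia and macrophage list of 8 genes, which covers cells that carry both receptors, summed to 1332 RPM in EGFR_KY23 and to 437 to 2488 RPM in the other tumours.

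Tagln3 had 470 RPM (458 to 482) in EGFR_KY23, against 23.1 to 347 RPM (median 80.3) in the other tumours and 453 and 460 RPM in cortex, so only the cortex samples came close. Boc had 25.7 RPM (23.02 to 28.7), against 3.80 to 23.3 RPM (median 10.03) in the other tumours and 24.9 and 24.3 RPM in cortex. The highest of the other tumours, T263P replicate 3, lay inside that counting interval. The list of 15 neuron genes had a mean of 5.81 on the log2(RPM + 1) scale in EGFR_KY23. That mean was higher in 17 of the other tumours and lower in 10. Whether neuron content bears on the Tagln3 and Boc levels in EGFR_KY23 was not tested.

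Gap43 had 329 RPM in EGFR_KY23 and 75.1 to 761 RPM in the other tumours, with 3 tumours above it. Alcam had 90.6 RPM, against 17.98 to 539 RPM, Lsamp 34.9 RPM, against 13.4 to 80.5 RPM, and Cblb 14.1 RPM, against 8.87 to 60.7 RPM. For these 4 genes EGFR_KY23 lay inside the range of the other tumours, with ranks of 4, 7, 19 and 23 of 28. The extreme tumours were others: EGFR_KY2 for Gap43, mCherry replicate 3 for Alcam, R108K replicate 1 for Lsamp and A289I replicate 4 for Cblb.

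**Figure D3:**
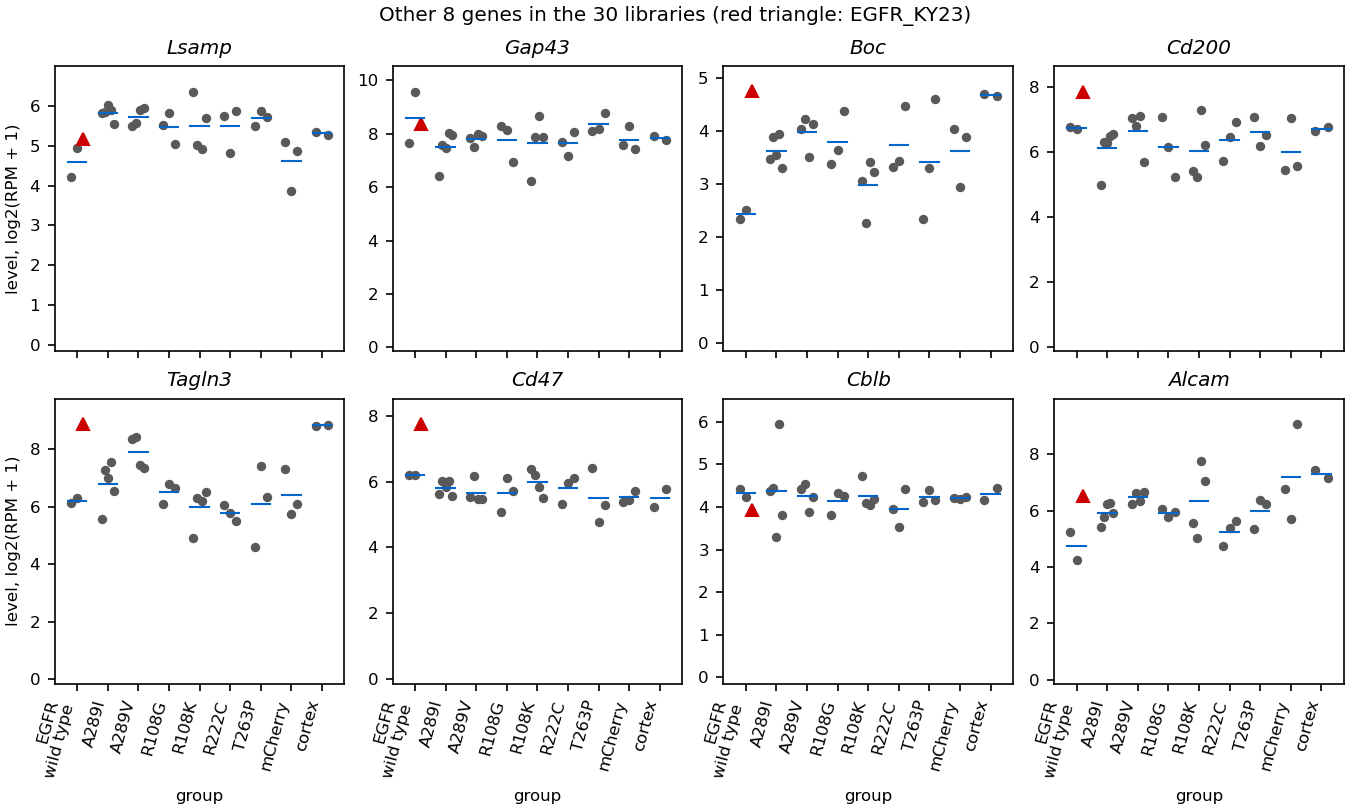
Levels in log2(RPM + 1) of 8 of the 10 genes in each of the 30 libraries, by group. Dots are libraries, blue lines the group means without EGFR_KY23, and the red triangle EGFR_KY23. The triangle is the highest tumour for Boc, Cd200, Tagln3 and Cd47 and lies within the other tumours for Lsamp, Gap43, Cblb and Alcam.

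Morc1 (48431237 to 48630900, plus strand) was low in most libraries and high in a few. EGFR_KY23 had 32 reads, 2.49 RPM (1.71 to 3.52), the 8th highest of the 28 tumours. The highest level was in EGFR_KY2, another wild-type EGFR tumour, with 1875 reads or 225 RPM, a difference of 7.30 from the tumour median and the fourth largest of any gene in that library. Next came mCherry replicate 1 with 22.1 RPM, EGFR_KY1 with 20.8, R108K replicate 3 with 10.6, A289I replicate 4 with 9.76, mCherry replicate 3 with 9.42 and R222C replicate 3 with 8.69 RPM. The tumours with a raised level thus came from 5 of the 8 tumour groups.

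No read of Morc1 was found in 8 tumours, which allows 0.161 to 1.15 RPM at 3 reads per library, and the cortex samples had 0 and 1 read. In EGFR_KY2 the tested genes next to Morc1 exceeded the tumour median by at most 1.09: Pvrl3 had 36.1 RPM (a difference of 0.97), Gm4737 79.3 RPM (0.13), Dzip3 67.0 RPM (0.52), C330027C09Rik 76.9 RPM (1.09) and Myh15 0.479 RPM (-0.20). Morc1 thus stood far above its neighbours there. The 8 genes of the germ cell list summed to 6.47 RPM in EGFR_KY2, 10.3 RPM in EGFR_KY23 and 3.82 to 38.7 RPM over the tumours other than EGFR_KY23. Of the 8, 1 was without a read in EGFR_KY2, 3 in EGFR_KY23 and 3 in each cortex sample.

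**Figure D4:**
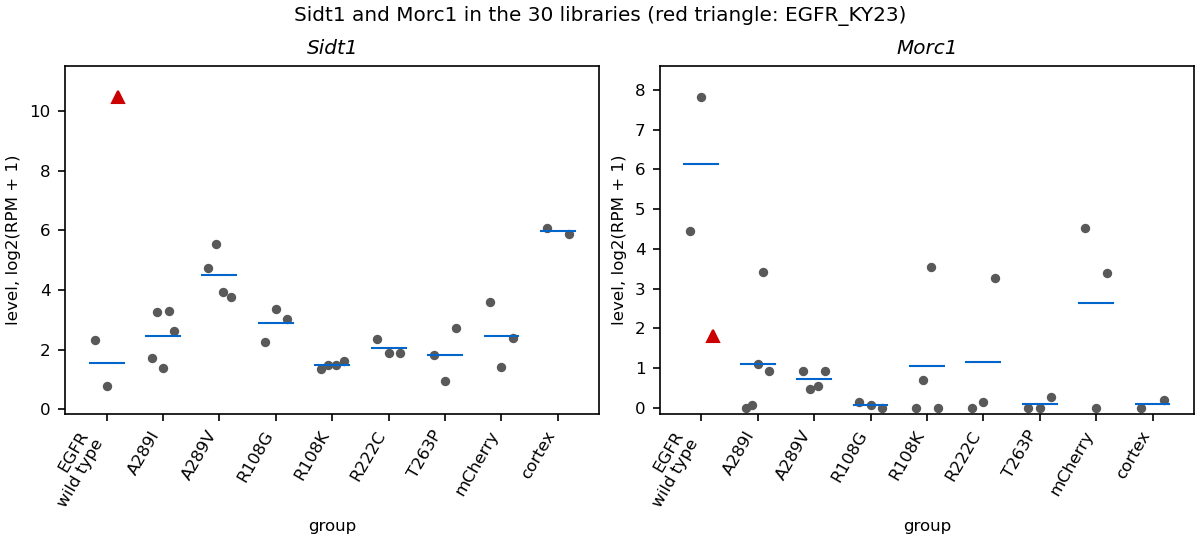
Levels of Sidt1 and Morc1 in log2(RPM + 1) in each of the 30 libraries, by group. Dots are libraries, blue lines the group means without EGFR_KY23, and the red triangle EGFR_KY23. Sidt1 is highest in EGFR_KY23 and next in cortex, while Morc1 is highest in EGFR_KY2 and near 0 in most libraries.

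With EGFR_KY23 left out, the groups were ordered in Sidt1 from low to high as follows. R108K averaged 1.80 ± 0.22 RPM (SD, n = 4), wild-type EGFR 2.35 ± 2.30 (n = 2), T263P 3.02 ± 2.40 (n = 3) and R222C 3.15 ± 0.82 RPM (n = 3). A289I averaged 5.27 ± 3.36 (n = 5), mCherry 5.63 ± 4.87 (n = 3) and R108G 6.74 ± 2.74 RPM (n = 3). Up to R108G every group overlapped with its neighbour in this order. A289V averaged 24.5 ± 14.9 RPM (n = 4), and its lowest library, at 12.7 RPM, was above every tumour of the other groups. Cortex was highest at 61.5 ± 5.93 RPM (n = 2) and did not overlap with A289V.

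Per kilobase of annotated exon, which allows genes to be compared, Gap43 had a median level of 156 RPM per kb over the 27 tumours and Tagln3 one of 64.7. Cd200 had 26, Alcam 8.53, Cd47 8.23, Lsamp 2.68, Boc 2.25 and Cblb 1.70 RPM per kb. Sidt1 (0.706) and Morc1 (0.0607) were the lowest of the 10.

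Across the 27 tumours other than EGFR_KY23, genes whose levels were most like those of Sidt1 included A830018L16Rik (Pearson r of log2(RPM + 1) 0.95) and the neuronal transcription factor Mef2c (0.94). In EGFR_KY23 these stood at 2.49 and 46.2 RPM, below their medians of 3.62 and 60.9 RPM over the other tumours. Sidt1 had r = 0.86 (Spearman rho 0.78) with the mean of the neuron list, and Tagln3 r = 0.86 (rho 0.82). Without the 2 tumours farthest from the median of the list, r was 0.78 for Sidt1 and 0.79 for Tagln3. The genes most like Morc1 were Gm6880 (r = 0.81), 1190007I07Rik (0.69) and the kinase Rps6ka3 (0.69). Without EGFR_KY2, where Morc1 was highest, r was 0.78, 0.68 and 0.50. Rps6ka3 was also highest in EGFR_KY2 (174 RPM), and Gm6880 had at most 2.55 RPM in these tumours. These are descriptions over 27 libraries whose genes share cell content and depth.

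Normal cortex was the reference for what a tumour differs in from its tissue. EGFR_KY23 was left out of every test except the alternative with all 30 libraries. That alternative holds the values on which the genes were chosen, so it is no check of the calls. The main fit, limma on log2(RPM + 1), covered 29 libraries and 15812 genes. Sidt1, Tagln3 and Boc were lower in the tumours, and no gene of the 10 was called higher. Sidt1 averaged 7.10 ± 9.35 RPM in tumours and 61.5 ± 5.93 RPM in cortex (SD, n = 27 and 2). Its log2 fold change was -3.56 ± 0.52 (SE) over the 8 tumour groups, with a Benjamini-Hochberg adjusted p of 9.2e-06, and all 27 tumours were below both cortex samples.

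Tagln3 averaged 113 RPM in the tumours and 456 RPM in cortex, a log2 fold change of -2.37 ± 0.50 (limma, adjusted p = 0.00051), lower in 27 of 27 tumours. Boc averaged 11.4 ± 5.21 RPM in the tumours and 24.6 ± 0.42 RPM in cortex, a log2 fold change of -1.23 ± 0.39 (limma, adjusted p = 0.012), also lower in 27 of 27. Thus 3 of the 10 genes fell, beside 48.3% of all tested genes called in either direction and 24.8% called lower. The median fold change was -0.23 over the 10 genes and 0.03 over all genes. In bulk tissue, fewer cells of a type and less RNA per cell cannot be told apart.

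The neuron list moved with these falls. Its 15 genes summed to 596 to 13547 RPM in the 27 tumours and to 16859 and 16989 RPM in cortex. With the neuron list mean entered as a covariate, the log2 fold change was -1.75 (adjusted p = 0.032) for Sidt1, -0.52 (0.521) for Tagln3 and -0.33 (0.713) for Boc. Boc was also lost without either cortex sample (adjusted p = 0.105 and 0.0973), with all 30 libraries (0.0501) and when 3 ranges of library numbers were entered as a term (0.0799).

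The other 7 genes did not pass. Alcam averaged 86.5 RPM in the tumours and 158 RPM in cortex (log2 fold change -1.32 ± 0.55, adjusted p = 0.0507), and 12 of its 41 alternatives put it past the threshold. Morc1 had a log2 fold change of 1.52 ± 0.96 (adjusted p = 0.196). Cd200 (-0.37), Cd47 (0.26), Lsamp (0.05), Gap43 (0.03) and Cblb (-0.08) had adjusted p between 0.49 and 0.96.

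Control tumours with mCherry were compared with cortex in the same fit, and the 2 comparisons share the cortex samples. Both cortex samples have library numbers in the range 20 to 37, which holds no mCherry library. Group and range therefore cannot be told apart in this comparison. Sidt1 had 11.1, 1.65 and 4.19 RPM in the mCherry tumours and 65.7 and 57.3 RPM in cortex, a log2 fold change of -3.50 ± 0.65 (limma, adjusted p = 0.00024). Tagln3 had 159, 53.4 and 67.9 RPM in the mCherry tumours, against 453 and 460 RPM in cortex, a log2 fold change of -2.44 ± 0.63 (limma, adjusted p = 0.0039). The groups did not overlap for either gene. These 2 of 10 genes stand beside 39.1% of all genes called and 20.8% called lower. The Tagln3 call was lost with the neuron covariate (-0.70, adjusted p = 0.427) and with the term for 3 ranges (0.0847), and the Sidt1 call with all 30 libraries (0.062). Morc1 had 22.1, 0 and 9.42 RPM in the mCherry tumours (2.54 ± 1.19, adjusted p = 0.094). Without mCherry replicate 2 its log2 fold change was 3.86 (adjusted p = 0.0135). DESeq2 also called it (7.11, adjusted p = 0.0334), as did limma with library weights (3.01, 0.00655), and edgeR did not (adjusted p = 0.078).

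**Figure D5:**
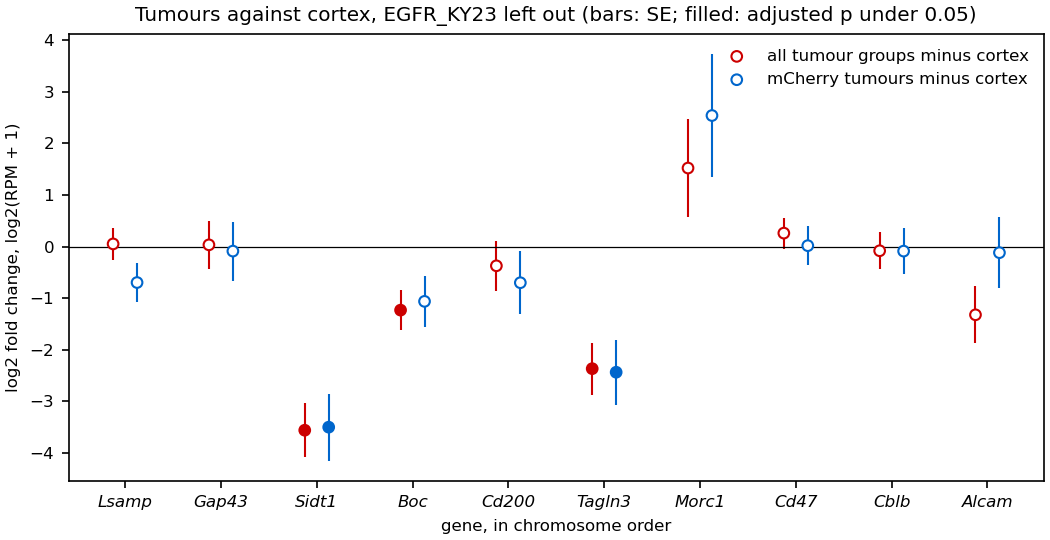
Log2 fold changes on the log2(RPM + 1) scale of the 10 genes, with EGFR_KY23 left out, for the mean of the 8 tumour groups minus cortex (red) and mCherry tumours minus cortex (blue). Bars are SE and filled circles have an adjusted p under 0.05. Sidt1 and Tagln3 are filled and lower in both, Boc in the comparison over all tumour groups.

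The receptor forms were each set against mCherry to see what the receptor adds. In A289V tumours Sidt1 and Lsamp were called higher, 2 of the 10 genes, beside 4.42% of all genes called and 2.87% called higher. Sidt1 had 25.8, 45.0, 14.3 and 12.7 RPM in the A289V tumours, against 11.1, 1.65 and 4.19 RPM in the mCherry tumours. The groups did not overlap, and the log2 fold change was 2.04 ± 0.54 (limma, adjusted p = 0.0387). Lsamp had 43.8, 46.2, 58.7 and 60.4 RPM in the A289V tumours, against 33.2, 13.4 and 28.3 RPM in the mCherry tumours, a log2 fold change of 1.12 ± 0.32 (limma, adjusted p = 0.0493). Again the groups did not overlap. Tagln3 averaged 254 ± 97.9 RPM in A289V and 93.5 ± 57.3 RPM in mCherry tumours (1.51 ± 0.52, adjusted p = 0.0803).

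Both calls lay close to the threshold and were lost under many alternatives. Sidt1 was not called without A289V replicate 1 (adjusted p = 0.126) or 2 (0.151), nor without mCherry replicate 2 (0.157) or 3 (0.165), nor without either cortex library (0.0501). Lsamp was lost without any 1 of the 4 A289V libraries, mCherry replicate 2 or 3, or any of 14 libraries of other groups. Of the 4 A289V libraries, 3 lie in a range of library numbers (20 to 37) that holds no mCherry library. With a term for 2 or 3 ranges of library numbers, the adjusted p was 0.164 and 0.204 for Sidt1 and 0.163 and 0.184 for Lsamp. DESeq2 and library weights each called Tagln3 besides these, and edgeR called none of the 10. The neuron list had a mean of 7.44 to 9.31 on the log2 scale in the A289V tumours and 5.83 to 7.50 in the mCherry tumours. With it as a covariate the log2 fold change of Sidt1 was 1.01 (adjusted p = 0.464), and that of Lsamp 1.11 (0.335). Over all 42 alternatives the adjusted p of Sidt1 ranged from 0.0107 to 0.464 and that of Lsamp from 0.0251 to 0.335.

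In A289I tumours none of the 10 genes was called by limma, beside 0.708% of all genes, and DESeq2 called Alcam and Lsamp. An unadjusted limma p under 0.05 was found for 2 of the 10, beside 1775 of all 15812 genes. Lsamp had 45.3 to 63.7 RPM (median 55.9) in the A289I tumours, against 13.4 to 33.2 RPM in the mCherry tumours, with no overlap (1.21 ± 0.31, adjusted p = 0.066). Wild-type EGFR, left with 2 libraries, gave 0 calls among the 10 and 0% over all genes by limma. Of the 10, 3 had an unadjusted limma p under 0.05, beside 654 of all 15812 genes, and DESeq2 called Alcam. R108G (0.0443% of all genes called), R108K (0.0822%), R222C (0.0126%) and T263P (0.00632%) gave no call among the 10. Unadjusted limma p under 0.05 were found for 2, 1, 2 and 2 of the 10 genes in these forms. Over all 15812 genes the counts were 1369, 1651, 1146 and 925. DESeq2 made 1 call in these forms, of Alcam in R222C. The quasi-likelihood test of edgeR called none of the 10 in any of the 7 forms. These 7 comparisons share the mCherry libraries. All R222C and T263P libraries have numbers in the range 20 to 37, which holds no mCherry library, so for these forms too group and range cannot be told apart.

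The F-test over the 8 tumour groups called Sidt1 (limma, adjusted p = 0.0132) and Morc1 (0.0239), 2 of the 10 genes, beside 10.5% of all genes. Sidt1 was not called without A289V replicate 1 (0.0607) or 2 (0.0657), with the neuron covariate (0.444) or with all 30 libraries (0.318). Morc1 was not called without EGFR_KY2 (0.199), A289V replicate 1 (0.0669) or 2 (0.0657), with the neuron covariate (0.124), all 30 libraries (0.079), the term for 3 ranges (0.0684) or a pseudocount of 0.1 RPM (0.0773), or without the 3 libraries with Met above 1000 RPM (0.0851). By group, Morc1 was 20.8 and 225 RPM in wild-type EGFR, 0.393 to 0.889 RPM in A289V, at most 0.0999 RPM in R108G and 0.209 RPM in T263P, and 0 to 22.1 RPM in mCherry tumours. Lsamp (0.0537) and Tagln3 (0.0681) missed the threshold.

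Receptors, ligands and relatives of the 10 genes were followed as 9 lists with 43 further genes, 40 of them tested. Against cortex 14 of the 40 rose and 10 fell in the tumours, with a median log2 fold change of 0.20, beside 23.5% of all tested genes called higher and 24.8% called lower. In the mCherry tumours 11 rose and 11 fell, beside 18.3% and 20.8% of all genes. Against mCherry, A289I called 1 of the 40 (Egfr), beside 0.708% of all genes, A289V 3 (Marcksl1 and 2 adhesion genes, Nrcam and Opcml), beside 4.42%, and the other forms none by limma. Each list below is small, and its counts against cortex stand beside the 48.3% of all genes called in that comparison.

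Of the hedgehog list, 3 genes rose and 3 fell in the tumours, Boc among the falls, beside 23.5% of all genes called higher and 24.8% called lower. Ptch1, the Sonic hedgehog receptor, averaged 35.1 ± 7.01 RPM in tumours and 10.02 ± 2.37 RPM in cortex (limma, log2 fold change 1.71, adjusted p = 2.4e-06). Gli1, a transcription factor induced by the pathway, averaged 0.549 ± 0.764 RPM in tumours and 3.57 ± 0.0525 RPM in cortex (-1.69, 2.5e-05). Cdon, the closest relative of Boc, averaged 8.18 RPM in tumours and 12.1 RPM in cortex and was not called (-0.65, adjusted p = 0.193). In EGFR_KY23 Cdon was 1.33 RPM, a difference of -1.80 from the tumour median, while Boc was at 1.25.

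Of the 5 genes listed as CD47 and CD200 axes, 2 rose and 1 fell, beside 48.3% of all genes called in either direction. Sirpa, the receptor of Cd47, averaged 240 ± 110 RPM in tumours and 673 ± 36.8 RPM in cortex, a log2 fold change of -1.65 (limma, adjusted p = 0.00074). Cd200r1 averaged 1.57 ± 1.08 RPM in tumours and 0.470 ± 0.0647 RPM in cortex, a log2 fold change of 0.80 (limma, adjusted p = 0.011). In EGFR_KY23 both were near the tumour median (0.17 and -0.03).

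Of the 5 IgLON genes, Lsamp included, 3 fell, beside 24.8% of all genes: Negr1 averaged 61.9 RPM in tumours and 194 RPM in cortex (-1.76, limma adjusted p = 0.0002), and Ntm and Opcml were called too. Lsamp stood at 0.05. Of the transgelin and calponin list 2 rose and 1, Tagln3, fell. Tagln2, a transgelin outside neurons, averaged 331 RPM in tumours and 16.3 RPM in cortex (4.03, limma adjusted p = 2.7e-05). Cnn3, a calponin, averaged 592 and 110 RPM (2.42, 1.7e-08). In EGFR_KY23 Tagln2 was 903 RPM, a difference of 1.42 from the tumour median, and Cnn3 was 711 RPM (0.34). Of the growth cone list 2 rose and 3 fell, with Dpysl3 at 2.29 (limma adjusted p = 0.00037) and Stmn3 at -3.37 (0.00012). Gap43 stood at 0.03. The differences from the tumour median in EGFR_KY23 were 0.95 for Dpysl3 and 0.04 for Stmn3.

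Among the MORC genes, Morc2a (1.19, limma adjusted p = 9e-05), Morc3 and Morc4 (2.14, 4.6e-05) rose in the tumours, 3 of 4 tested with Morc1 the fourth, beside 23.5% of all genes called higher. Sidt2, the lysosomal relative of Sidt1, averaged 69.9 ± 18.8 RPM in tumours and 84.8 ± 1.73 RPM in cortex and was not called (-0.35, adjusted p = 0.24). In EGFR_KY23 it was 49.0 RPM, against 1404 RPM for Sidt1. Of the Cbl list 2 rose and 1 fell, and Cbl averaged 24.5 RPM in tumours and 3.53 RPM in cortex (2.45, adjusted p = 4.7e-06), with Cblb at -0.08. Of Alcam and its 3 listed partners none was called in the tumours, and L1cam and Nrcam fell in mCherry tumours against cortex. Cd6 was at 3.61 RPM in tumours and 6.44 RPM in cortex (-0.94, adjusted p = 0.143).

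A scan for raised runs placed the stretch among others. Windows of 7 neighbours were taken over the 11135 genes averaging 10 RPM or more over the 28 tumours, EGFR_KY23 included. Sidt1 averaged 57.0 RPM over all 28 and 7.10 RPM over the other 27, so it entered the scan through EGFR_KY23. The scan holds the values on which the stretch was chosen and is a description. Windows whose median difference was 1.5 or more were joined into 1 run where they shared a gene. A run can therefore hold genes that were not raised. This found 51 runs in 18 of the 28 tumours. The median over a whole run could fall under 1.5, down to 0.08 for a run of R108G replicate 2 on chromosome 1. EGFR_KY23 had 1, on chromosome 16 from Lsamp to Nfkbiz with 29 genes and a median of 1.70. The genes at its ends, Lsamp (-0.38) and Nfkbiz (-1.61), were not raised themselves. EGFR_KY23 was the only tumour with a run in the interval. The longest run, of 43 genes on chromosome 6, was in R108G replicate 1. Within the range of library numbers that holds EGFR_KY23, 20 to 37, the other 11 tumours had stretch medians between -0.48 and 0.33.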

How the data were processed

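The authors deposited 9 tables, 1 per group, with 1 signal per gene and library. The tables are named RPM, but each library sums to 9.31 to 12.04 times what RPM sum to, and the values divided by a constant per library are whole reads within 0.05 of a read for at least 99.9959% of values. They are thus read counts scaled by 1 size factor per library. The submitters' processing notes name FastQC, STAR 2.5.0a, DESeq2 1.20.0 and mm10 without roles, and the counting is not given in the sources used here. The deposited signal was divided by 10.26, the same for every library, and is called RPM. The design had assumed RPM, and the unit found needed no other test.

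Genes were placed with GENCODE M21 or through RefSeq symbols and synonyms on GRCm38.p6, which together placed 99.6% of tested genes. Those reaching 1 RPM in 3 or more libraries were tested with limma 3.58.1 in R 4.3.3 on log2(RPM + 1) (eBayes with trend and robust, two-sided, Benjamini-Hochberg adjustment over all genes, threshold 0.05). The fit had 9 group means over 29 libraries. EGFR_KY23 was left out because the genes were chosen on it, and its values are differences from the median of the 28 tumours with exact Poisson 95% intervals. The recovered reads, 2784129 to 24475215 per library, were also tested with edgeR 4.0.16 and DESeq2 1.42.0. The fits were tested on simulated data. Other alternatives were a pseudocount of 0.1 RPM, other filters, TMM rescaling, library weights, terms for ranges of library numbers, the neuron list as a covariate, all 30 libraries, a fit to the compared groups alone, and the removal of every library in turn. Besides the 10 genes, the 10 largest and 5 smallest differences among the other interval genes averaging 5 RPM or more were named, with the genes of smallest adjusted p in the partner lists and the 3 most like Sidt1 or Morc1, of which 1 is not reported here. Genes named outside this rule are Epha3, Dppa2, Nfkbiz, Nxpe3, Myh15, Tigit, Btla, Cd96, Cd200r3, G730013B05Rik and Phldb2, chosen after their values were seen. The 10 genes and the gene lists were chosen with earlier results of these data known. Tables and figures were made in Python 3.11.15 (pandas 2.3.3, numpy 2.4.6, matplotlib 3.10.9, scipy 1.17.1).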

Additional observations from a re-analysis of the deposited data

Results flagged for a closer look

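In 30 sets of libraries (10 genes in the 3 groups with 4 or 5 libraries) Dixon's test at the 95% level marked 2 single libraries, about as many as chance gives at 5% of sets. Cd200 was 30.2 RPM in A289I replicate 1 and 76.0 to 92.9 RPM in the other A289I tumours. Cd47 was 70.4 RPM in A289V replicate 2 and 43.1 to 45.0 RPM in the other A289V tumours. Wild-type EGFR, with EGFR_KY23, holds 3 libraries and was not tested in this way. The tumour groups differed in Sidt1 (limma F-test, adjusted p = 0.0132) and in Morc1 (0.0239).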

How the results depend on the processing

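In EGFR_KY23 the median over the 10 genes was 1.23 to 1.36 under all 32 alternatives, and 6 genes stayed at 1 or more. The median over the 43 interval genes, 1.29, became 1.51 with a pseudocount of 0.1 RPM, 1.55 against the mean of EGFR_KY1 and EGFR_KY2, 1.57 with a filter of 5 RPM and 0.50 with no filter, which adds genes with few reads. Leaving out 1 other tumour gave 1.28 to 1.33.

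Where a change of setting moved a count or a sign, the cause was not tested. The shares of all genes called under these other settings are not given here. No shift in a count is therefore read as particular to the 10 genes. Of the 10 genes, 3 were called in tumours against cortex, 5 with library weights, 1 with the neuron covariate and 2 to 4 without 1 library. In mCherry against cortex, 2 were called, 4 with library weights, 3 with DESeq2, 1 with the term for 3 ranges, the neuron covariate or all 30 libraries, and 2 to 3 without 1 library. In A289V against mCherry, 2 were called. That count was 0 with a pseudocount of 0.1 RPM, no filter, a term for 2 or 3 ranges, the neuron covariate, the 2 groups alone, edgeR, or without the 3 libraries with Met above 1000 RPM. It was 3 with library weights or DESeq2, which add Tagln3, 1 with TMM rescaling or all 30 libraries, and 0 to 3 without 1 library. In A289I the count of 0 became 2 with DESeq2, 1 with the term for 3 ranges and 0 to 1 without 1 library. It became 1 in wild-type EGFR and in R222C with DESeq2, and 1 in R108G with the term for 3 ranges. The F-test count of 2 became 5 with library weights or DESeq2, 4 with edgeR, 1 with a pseudocount of 0.1 RPM or without the Met libraries, 0 with the neuron covariate or all 30 libraries, and 0 to 4 without 1 library.

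Signs turned for genes that did not pass in either setting. In tumours against cortex these were Lsamp (-0.065 and -0.11 with terms for 2 and 3 ranges), Gap43 (-0.21 with the neuron covariate, -0.11 without the Met libraries, -0.088 to 0.15 without 1 library), Cd200 (0.18 with 3 ranges), Cblb (0.64 with the neuron covariate, 0.013 with edgeR, -0.21 to 0.050 without 1 library) and Cd47 (-0.021 to 0.54 without 1 library). In mCherry against cortex they were Gap43 (0.076 and 0.76 with 2 and 3 ranges, 0.038 with edgeR, -0.35 to 0.076 without 1 library), Cd200 (0.12 with 3 ranges), Cd47 (-0.083 and -0.37 with 2 and 3 ranges, -0.0048 with DESeq2, -0.26 to 0.30 without 1 library), Cblb (0.59 with the neuron covariate, -0.22 to 0.043 without 1 library) and Alcam (0.33 with library weights, 0.29 with 3 ranges or the neuron covariate, 0.62 without the Met libraries or with edgeR, 0.56 with DESeq2, -1.06 to 0.62 without 1 library). No paired analysis was possible because every library carries a number of its own. Cortex and wild-type EGFR entered the fit with 2 libraries each, and 8 tumours had no Morc1 read, which limits the precision of their values.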
